A study of Arabidopsis thaliana with 12 samples.

Results

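Chlorophyll synthesis and its GLK regulators were followed through 9 genes: the enzymes or enzyme partners HEMA1 (AT1G58290), CHLH (AT5G13630), GUN4 (AT3G59400), PORA (AT5G54190), PORB (AT4G27440), PORC (AT1G03630) and CAO (AT1G44446), and the transcription factors GLK1 (AT2G20570) and GLK2 (AT5G44190). They are defined by name and role, with no threshold on a measured level, and they are 9 of the 33602 genes in the expression table. They were chosen with earlier results of these data known. RNA-seq was available for whole Arabidopsis thaliana seedlings of the Col-0 ecotype at 10 days after germination (DAG), grown in long days on sucrose-containing agar plates, with 3 biological replicates for each of 4 genotypes. WT carried no Polycomb group (PcG) mutation. clf28swn7 is a double mutant of CLF and SWN, the methyltransferases of Polycomb repressive complex PRC2 that place H3K27me3. emf1-2, which the labels give only as emf1, is a mutant of EMF1, a plant-specific PcG protein. ring1ab is a double mutant of RING1A and RING1B, ring finger proteins of the complex PRC1 that places H2AK121ub, and the study treats it as a weak knockdown with remaining RING1 activity. clf28swn7 and emf1-2 are known as severe mutants whose shoots do not leave the embryonic programme for vegetative growth, so a whole seedling of these mutants is made of other organs than a WT seedling. The study describes a stunted root with embryonic features in clf28swn7, but a root like that of WT in emf1-2. Expression is given in FPKM, a fragment count scaled to the length of the exons and to the size of the library, which allows levels to be set side by side between genes. Of the 33602 genes, 21227 were tested, those with 3 or more libraries at 1 FPKM or above, and the 9 genes of interest were among them.

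Chlorophyll and heme are built along the same route in the plastid. Glutamyl-tRNA reductase, encoded mainly by HEMA1, makes the first committed intermediate. At the branch point, Mg-chelatase, whose large subunit is CHLH and whose activity is stimulated by the porphyrin-binding protein GUN4, inserts magnesium and directs the route to chlorophyll. Protochlorophyllide oxidoreductase (POR) then reduces protochlorophyllide to chlorophyllide in a step that needs light. Arabidopsis has 3 POR genes: PORA is known from etiolated seedlings and is repressed by light, PORB is expressed in darkness and in light, and PORC is known from green tissue in the light. Chlorophyllide a oxygenase, CAO, makes chlorophyll b. GLK1 and GLK2 are related GARP-type transcription factors that activate genes for chlorophyll synthesis and light harvesting, and in Arabidopsis they are partly redundant.

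The upstream sequences of 5 of the genes are shown because these genes include the pairs whose members diverged most from each other in the mutants, PORA with PORB and GLK1 with GLK2, and GUN4, which followed GLK1 closely. Each is the 250 bases before the annotated start of the gene in the RefSeq TAIR10.1 assembly, written 5′ to 3′ on the strand of the gene: PORA is chr5:21992815-21993064 (minus strand), PORB chr4:13725296-13725545 (plus strand), GUN4 chr3:21949797-21950046 (minus strand), GLK1 chr2:8855052-8855301 (plus strand) and GLK2 chr5:17798012-17798261 (plus strand). Capitals mark the motifs searched on either strand, which were CCAATC, a sequence known to be recognised by GLK proteins, CACGTG, the G-box, and GATAAG, the I-box, which reads CTTATC on the other strand.
PORA: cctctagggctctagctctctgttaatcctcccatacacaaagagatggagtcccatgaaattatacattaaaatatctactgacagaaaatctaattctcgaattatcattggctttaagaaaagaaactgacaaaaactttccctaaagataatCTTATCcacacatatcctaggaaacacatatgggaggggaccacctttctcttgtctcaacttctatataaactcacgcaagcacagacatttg
PORB: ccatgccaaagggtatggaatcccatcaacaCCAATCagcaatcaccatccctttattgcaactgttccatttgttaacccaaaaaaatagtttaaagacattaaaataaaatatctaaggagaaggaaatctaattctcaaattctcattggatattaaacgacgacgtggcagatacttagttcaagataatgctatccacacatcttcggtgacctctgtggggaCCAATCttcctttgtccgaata
GUN4: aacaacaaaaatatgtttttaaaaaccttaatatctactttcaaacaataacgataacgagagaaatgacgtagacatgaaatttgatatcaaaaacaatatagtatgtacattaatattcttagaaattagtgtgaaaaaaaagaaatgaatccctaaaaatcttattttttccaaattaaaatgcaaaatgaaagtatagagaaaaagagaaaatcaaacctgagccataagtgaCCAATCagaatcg
GLK1: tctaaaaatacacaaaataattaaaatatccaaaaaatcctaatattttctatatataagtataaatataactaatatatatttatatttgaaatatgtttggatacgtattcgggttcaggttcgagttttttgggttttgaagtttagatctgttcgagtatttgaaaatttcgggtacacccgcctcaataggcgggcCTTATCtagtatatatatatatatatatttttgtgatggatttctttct
GLK2: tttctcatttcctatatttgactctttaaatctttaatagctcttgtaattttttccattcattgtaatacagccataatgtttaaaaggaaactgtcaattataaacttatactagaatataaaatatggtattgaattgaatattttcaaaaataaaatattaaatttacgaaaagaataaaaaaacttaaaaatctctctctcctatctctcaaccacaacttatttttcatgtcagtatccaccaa
The PORB sequence held CCAATC at 219 and at 22 bases before the start, and the GUN4 sequence held it at 13 bases before the start. PORA and GLK1 each held an I-box in the CTTATC orientation, at 94 and 49 bases before the start, and no searched motif was found in GLK2. Of the 4 genes not shown, CAO held the G-box at 52 and at 32 bases before the start, and HEMA1, CHLH and PORC held none of the 3 motifs. Of 27443 annotated upstream sequences of the same length, 10.2% held CCAATC, 6.49% the G-box and 12.3% the I-box, so that these matches are a description of the letters and not evidence of binding.

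The libraries were estimated to hold between 14200000 and 21700000 mapped fragments, with the lowest values in clf28swn7 (14200000 to 15000000). The genes named by the genotypes were examined first. In clf28swn7 CLF was at 0.169 to 0.511 FPKM, against 7.98 to 9.56 in WT, and SWN was at 3.36 to 3.80 against 15.8 to 17.6. RING1B was at 0.377 to 0.859 FPKM in ring1ab and at 6.0 to 7.61 in WT, whereas RING1A was at 182 to 201 FPKM in ring1ab and at 4.03 to 5.58 in WT. EMF1 was at 46.2 to 57.4 FPKM in emf1-2 and at 7.31 to 8.79 in WT. It was as high in clf28swn7, at 52.6 to 56.0 FPKM, so this level does not set emf1-2 apart. A level per gene cannot show whether an RNA is intact, so RING1A in ring1ab and EMF1 in emf1-2 do not check these labels, and directions given below for emf1-2 and ring1ab refer to the libraries with those labels. The RNA of marker genes for leaf, root and seed also differed with genotype, which alone does not show how much of each tissue was present. The summed FPKM of 4 RBCS genes, which mark green leaf tissue, was 13700 to 14400 in WT, 2460 to 2970 in clf28swn7, 2950 to 3760 in emf1-2 and 8440 to 10500 in ring1ab. By the rule given in the next paragraph, 4, 4 and 1 of the 4 genes were called lower in the mutants in that order. Of all tested genes, 12.3%, 12.4% and 1.03% were called lower. For 10 root marker genes the sums were 242 to 293, 59.8 to 80.4, 11.5 to 34.4 and 278 to 367 FPKM. Of these genes 9, 9 and 0 were called lower, beside the same shares of all tested genes. The emf1-2 sum was the lowest of the 4 genotypes, although the study describes a root like that of WT for this mutant. The reason was not tested. Sums of 8 seed storage and oil body genes were 1.99 to 11.5 in WT, 35500 to 39700 in clf28swn7, 371 to 950 in emf1-2 and 13500 to 23000 in ring1ab. Here 8, 7 and 8 were called higher, beside 15.1%, 13.7% and 7.16% of all tested genes. No gene of these 3 lists was at 0 in every library of a genotype. The part of these shifts in the results that follow was not tested, and in whole seedlings fewer green cells and less RNA per green cell cannot be told apart.

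Each mutant was compared with WT with limma on log2(FPKM + 1), and a gene was called when its log2 fold change was at least 1 in size with an unadjusted p under 0.05. Fold changes on this scale understate the change of genes with low FPKM. The comparison asks how the genes of chlorophyll synthesis are expressed in seedlings mutated in the PRC2 methyltransferases or EMF1, or with reduced RING1 activity. In clf28swn7 3 of the 9 genes were called lower, PORB, PORC and GLK1, where 12.3% of all tested genes were called lower, and 0 were called higher, where the share of all genes was 15.1%. In emf1-2 5 of the 9 were lower, CHLH, GUN4, PORB, PORC and GLK1, against 12.4% of all genes, and 1 was higher, PORA, against 13.7%. PORA passed the filter on low values only through emf1-2 and 1 clf28swn7 library, so its place in that count follows in part from the filter. In ring1ab only PORC was called lower among the 9, against 1.03% of all genes, and 0 were called higher, against 7.16%. Without the requirement on fold, an unadjusted limma p under 0.05 was reached by 6 of the 9 genes with a negative and 1 with a positive value in clf28swn7, where 33.4% and 39.8% of all tested genes did so. The counts were 8 and 1 in emf1-2, against 28.4% and 46.1% of all genes, and 2 and 0 in ring1ab, against 18.9% and 27.3%. The positive gene was PORA in both clf28swn7 and emf1-2, with the same limit from the filter. The median log2 fold change of the 9 genes was -0.72 in clf28swn7, -1.25 in emf1-2 and -0.05 in ring1ab, beside 0.07, 0.19 and 0.04 over all tested genes. Scaling the libraries by median of ratios moved the median of all genes in emf1-2 from 0.19 to 0.02.

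**Figure D1:**
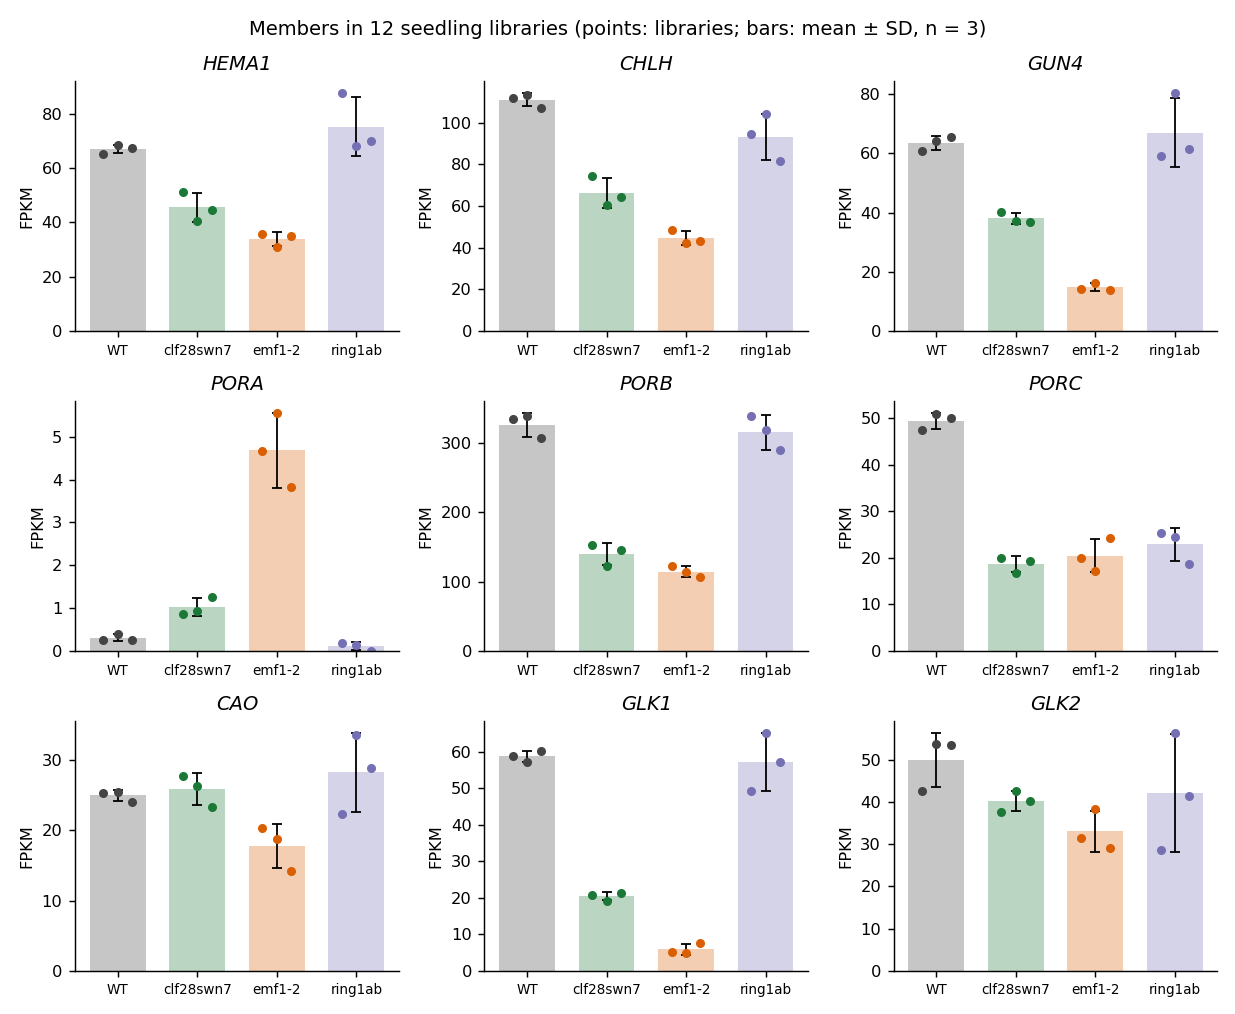
FPKM of the 9 genes in each of the 12 libraries (points), with the mean (bar) and SD (error bar, n = 3) of each genotype; every panel has its own linear axis starting at 0. GLK1 and GUN4 descend from WT through clf28swn7 to emf1-2, PORC is low in all 3 mutants, PORA is highest in emf1-2 (3.82 to 5.56 FPKM), and CAO and GLK2 overlap between most genotypes.

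GLK1 showed the widest range of the 9 genes on the downward side. It lies at chr2:8855302-8857758 on the plus strand and overlaps no other annotated gene. In WT GLK1 was at 58.7, 57.2 and 60.1 FPKM in replicates 1, 2 and 3. In clf28swn7 it was at 20.7, 19.1 and 21.3, and in emf1-2 at 5.21, 4.93 and 7.62 FPKM. The libraries of the 3 genotypes formed separate ranges, in the order WT, clf28swn7, emf1-2. In ring1ab GLK1 was at 49.2, 65.2 and 57.1 FPKM, a range that spans the WT libraries. The mean was 34.7% of WT in clf28swn7 and 10.1% in emf1-2. On the log2 scale GLK1 fell by 1.48 in clf28swn7 (SE 0.139, limma adjusted p = 2.37e-06) and by 3.13 in emf1-2 (SE 0.139, limma adjusted p = 8.29e-09). The difference between the mutants was tested directly and GLK1 was lower in emf1-2 than in clf28swn7 by a log2 difference of -1.64 (limma adjusted p = 2.93e-06). For ring1ab the log2 fold change was -0.05 (95% interval -0.35 to 0.26), and WT and ring1ab did not differ beyond their spread.

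GLK2, at chr5:17798262-17800926 on the plus strand, varied far less. Its FPKM was 42.5, 53.7 and 53.4 in WT, 37.7, 42.5 and 40.3 in clf28swn7, and 31.5, 38.3 and 29.1 in emf1-2. All emf1-2 libraries were below all WT libraries, whereas replicate 2 of clf28swn7 was level with replicate 1 of WT. The ring1ab libraries spread from 28.6 over 41.3 to 56.4 FPKM and covered the whole range of the other genotypes. No log2 fold change of GLK2 reached the threshold: it was -0.30 in clf28swn7 (95% interval -0.75 to 0.15), -0.58 in emf1-2 (-1.03 to -0.13) and -0.28 in ring1ab (-0.73 to 0.17). The 2 genes share 68.3% of 1120 aligned coding bases, with a longest identical run of 24 bases.

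The balance between the 2 factors was expressed as the log2 ratio of GLK1 to GLK2 within each library. In WT this ratio was 0.46, 0.09 and 0.17, which puts GLK1 slightly above GLK2. It was -0.83, -1.12 and -0.89 in clf28swn7 and -2.39, -2.73 and -1.81 in emf1-2. Every library of these mutants had less GLK1 than GLK2, and the 3 genotypes did not overlap. In ring1ab the ratio was 0.76, 0.20 and 0.46, on the WT side. The mean differed from that of WT by -1.19 in clf28swn7 and by -2.55 in emf1-2, each with an exact two-sided permutation p of 0.1, the smallest that 3 against 3 libraries allow, and by 0.24 in ring1ab (exact permutation p = 0.3). Adjusted over the 18 such comparisons of ratios and shares, these p-values were 0.138 and 0.318 by the Benjamini-Hochberg method over exact permutation tests, so none could pass 0.05.

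**Figure D2:**
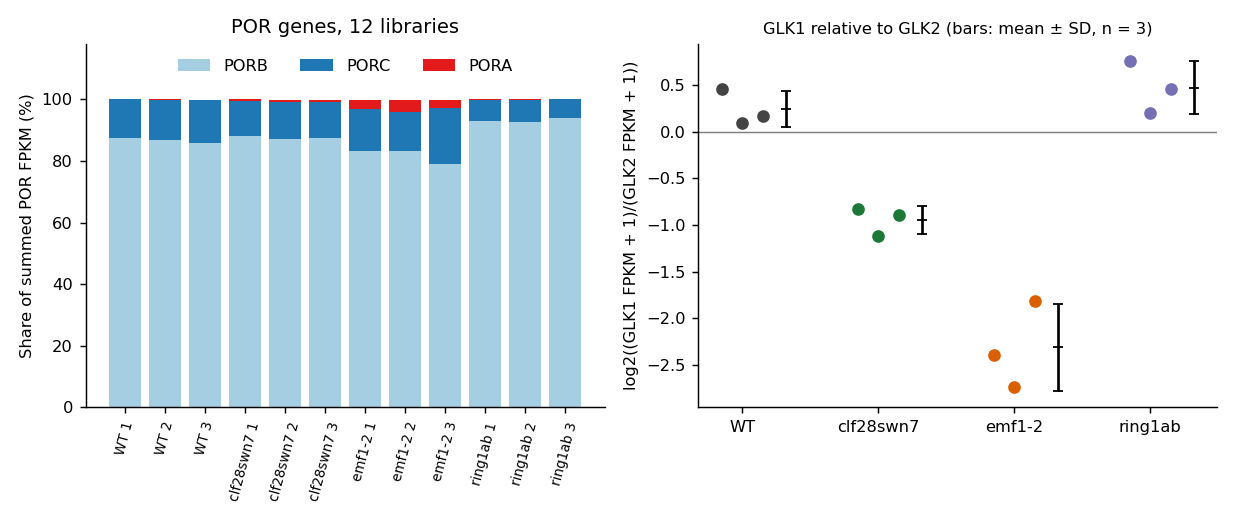
Left, the share of PORB, PORC and PORA in the summed FPKM of the 3 POR genes, in percent, for each library; right, the log2 ratio of GLK1 to GLK2 in each library (points) with mean and SD (n = 3). PORC takes 6.08 to 7.16% of POR transcripts in ring1ab against 12.5 to 14.0% in WT, PORA becomes visible in emf1-2 (2.83 to 4.07%), and the GLK ratio is below 0 in every clf28swn7 and emf1-2 library.

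Among the early steps, HEMA1 (chr1:21623700-21626402, minus strand) had 65.3, 68.4 and 67.2 FPKM in WT. It had 51.2, 40.6 and 44.6 FPKM in the clf28swn7 libraries, 35.8, 31.1 and 35.0 in those of emf1-2, and 87.6, 68.0 and 70.1 in those of ring1ab. The clf28swn7 and emf1-2 libraries lay below all WT libraries and did not overlap each other, while those of ring1ab overlapped with WT. The log2 fold changes of HEMA1 were -0.56 in clf28swn7 (limma adjusted p = 9.5e-04) and -0.96 in emf1-2 (limma adjusted p = 1.46e-05), neither of which reached the threshold of 1 in size. With median-of-ratios scaling the emf1-2 value became -1.16 and passed it.

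CHLH, the large subunit of Mg-chelatase (chr5:4387307-4392429, minus strand), was expressed at 112, 113 and 107 FPKM in WT. In clf28swn7 the values were 74.3, 60.3 and 64.1, in emf1-2 48.3, 42.4 and 43.1, and in ring1ab 94.5, 104 and 81.5 FPKM. The 4 genotypes formed ranges without overlap, in the order WT, ring1ab, clf28swn7, emf1-2, although the ring1ab libraries came close to WT. CHLH fell by 1.3 on the log2 scale in emf1-2 (SE 0.105, limma adjusted p = 7.8e-07). In clf28swn7 the log2 fold change was -0.74 and in ring1ab -0.25 (95% interval -0.48 to -0.02, limma adjusted p = 0.0811), both short of the threshold. The CHLH difference between emf1-2 and clf28swn7 was -0.56 (95% interval -0.79 to -0.33), also short of it.

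GUN4, the partner of CHLH, showed the second deepest decrease in emf1-2 after GLK1. It lies at chr3:21948501-21949796 on the minus strand. Its levels were 60.7, 64.1 and 65.5 FPKM in WT and 59.2, 80.4 and 61.4 in ring1ab. The clf28swn7 libraries had 40.2, 37.1 and 37.0 FPKM, and those of emf1-2 had 14.2, 16.4 and 13.8. As with GLK1, the ranges of WT, clf28swn7 and emf1-2 were separate and ring1ab overlapped with WT. The emf1-2 mean was 23.3% of WT. GUN4 fell by 2.03 on the log2 scale in emf1-2 (SE 0.112, limma adjusted p = 3.99e-08), had -0.72 in clf28swn7, and differed by -1.31 between emf1-2 and clf28swn7 (limma adjusted p = 3.25e-06). Of the 1296 bases of GUN4, 946 are overlapped by AT3G59410 on the opposite strand, and whether reads were counted by strand was not given in the sources used here. The neighbour had mean levels of 9.01 FPKM in WT and 11.4 in emf1-2 and was not called in any mutant.

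The POR genes did not move together. PORB, at chr4:13725546-13727440 on the plus strand, was the most abundant of the 9 genes. It had 334, 338 and 307 FPKM in WT and 339, 318 and 289 in ring1ab. The clf28swn7 libraries had 153, 122 and 145 FPKM and the emf1-2 libraries 123, 114 and 107. WT and ring1ab libraries were intermingled, and both lay above clf28swn7 and emf1-2, whose ranges met at 122 and 123 FPKM. PORB fell by 1.22 in clf28swn7 (SE 0.1, limma adjusted p = 7.95e-07) and by 1.5 in emf1-2 (SE 0.1, limma adjusted p = 1.67e-07) on the log2 scale. For ring1ab the log2 fold change was -0.05 (95% interval -0.27 to 0.17). In PORB 71 bases are overlapped by AT4G27450 on the opposite strand, which was itself lower in emf1-2 (180 to 48.2 FPKM, log2 fold change -1.89).

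PORC, at chr1:907523-909650 on the plus strand, was the only member called in all 3 mutants. It was at 47.6, 50.9 and 50.1 FPKM in WT. The clf28swn7 libraries had 20, 16.7 and 19.4 FPKM, those of emf1-2 had 19.9, 17.3 and 24.3, and those of ring1ab had 25.4, 24.5 and 18.7. Every mutant library was below every WT library, and the 3 mutants overlapped with each other. PORC fell on the log2 scale by 1.36 in clf28swn7 (limma adjusted p = 4.01e-06), by 1.25 in emf1-2 (limma adjusted p = 8.63e-06) and by 1.09 in ring1ab (SE 0.136, limma adjusted p = 1.14e-04). The ring1ab call rested on replicate 3, the lowest of the group: without it the log2 fold change was -0.96 and the gene was no longer called, although the direction was kept. The mutant means were 37.8%, 41.4% and 46.2% of WT in the same order. Between mutants, the PORC differences were 0.12 for emf1-2 against clf28swn7 (95% interval -0.18 to 0.42) and 0.27 for ring1ab against clf28swn7 (-0.03 to 0.57).

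PORA, at chr5:21990864-21992814 on the minus strand, went the other way. In WT it was barely detected, with 0.263, 0.398 and 0.252 FPKM, which correspond to an estimated 8, 13 and 8 fragments. It had 0.860, 0.937 and 1.26 FPKM in clf28swn7 (20, 23 and 30 estimated fragments) and 4.66, 5.56 and 3.82 in emf1-2 (153, 175 and 129 fragments). In ring1ab it had 0.198 and 0.144 FPKM and was listed at 0 in replicate 3. The order emf1-2, clf28swn7, WT, ring1ab held without overlap between libraries, but the distance between WT and ring1ab amounts to a few fragments. PORA rose by 2.11 on the log2 scale in emf1-2 (SE 0.122, limma adjusted p = 5.52e-08), and its mean FPKM was 15.4 times that of WT. In clf28swn7 the log2 fold change was 0.63 (limma adjusted p = 7.4e-04), which did not reach the threshold, and the ratio of mean FPKM was 3.35. At these levels the pseudocount sets the size, and with a pseudocount of 0.1 the clf28swn7 value became 1.47 and was called. PORA was higher in emf1-2 than in clf28swn7 by 1.49 (limma adjusted p = 2.36e-06). PORA was tested only because its emf1-2 libraries and 1 clf28swn7 library passed the filter on low values. Its p-values therefore follow in part from the filter and are not support for the rise. PORA and PORB are identical at 83.3% of 1206 aligned coding bases, with a longest identical run of 44 bases, and PORA shares 74.2% of aligned bases with PORC. How reads that match both PORA and PORB were assigned was not given in the sources used here, so the low PORA values are uncertain. In emf1-2, where PORA was highest, PORB was at 35.1% of its WT level.

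The summed FPKM of the 3 POR genes was 376 ± 17.1 in WT, 160 ± 17.9 in clf28swn7, 140 ± 6.58 in emf1-2 and 338 ± 28.6 in ring1ab (mean ± SD, n = 3). PORB supplied most of it in each genotype, with 86.7% in WT, 87.6% in clf28swn7, 81.9% in emf1-2 and 93.2% in ring1ab. The share of PORC was 12.5, 13.1 and 14.0% in the WT libraries and 6.96, 7.16 and 6.08% in ring1ab, a difference of the means of -6.45 percentage points (exact permutation p = 0.1, the smallest possible). PORC was called lower in ring1ab and PORB was not, and the log2 ratio of PORB to PORC was 3.69, 3.64 and 3.88 there against 2.78, 2.71 and 2.59 in WT. The PORA share had means of 0.0805% in WT, 0.642% in clf28swn7 and 3.36% in emf1-2 libraries. For clf28swn7 the PORC share of 11.7% lay 1.44 points under WT, and for emf1-2 the share of 14.7% overlapped with WT (exact permutation p = 0.6).

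CAO, at chr1:16848308-16851271 on the minus strand, varied least of the 7 enzyme genes in its fold changes. It had 25.4, 25.5 and 24.1 FPKM in WT and 20.3, 18.8 and 14.2 in emf1-2. The other mutants had 27.8, 26.4 and 23.4 FPKM (clf28swn7) and 22.3, 33.6 and 28.9 FPKM (ring1ab). Only the emf1-2 libraries lay apart from WT, all below it. No CAO fold change reached the threshold: the log2 values were 0.04 in clf28swn7 (95% interval -0.29 to 0.38), -0.49 in emf1-2 (-0.82 to -0.15, limma adjusted p = 0.0135) and 0.15 in ring1ab (-0.18 to 0.49). A change of 1 in size is outside each of these intervals.

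**Figure D3:**
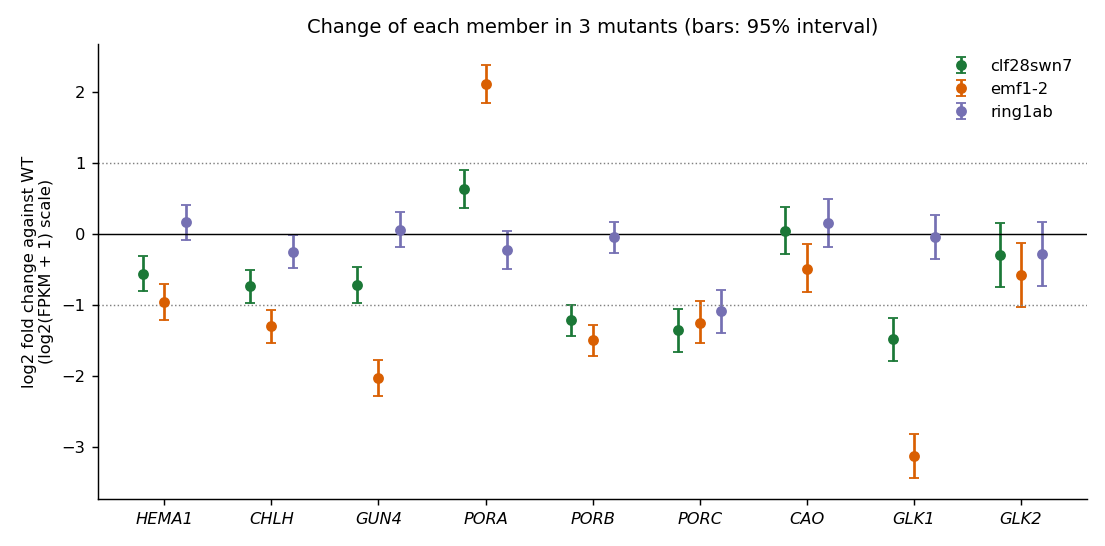
Log2 fold change of the 9 genes against WT in clf28swn7, emf1-2 and ring1ab, on the log2(FPKM + 1) scale, with 95% intervals from the limma fit; dotted lines mark the threshold of 1 in size. GLK1 (-3.13) and GUN4 (-2.03) are lowest in emf1-2, PORA (2.11) is the only gene above the upper line, and PORC is near or below the lower line in all 3 mutants.

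The mutants were also compared with each other, with the same rule. Between emf1-2 and clf28swn7, GUN4 and GLK1 were lower in emf1-2 (2 of 9, where 8.35% of all genes were lower and 5.54% higher). PORA was higher in emf1-2, but it entered the tested genes through its emf1-2 libraries, so it is not counted here. The remaining 6 genes differed by between -0.56 and 0.12 and were not called. Between ring1ab and clf28swn7, PORB and GLK1 were higher in ring1ab by 1.17 and 1.44 (2 of 9, against 11.9% of all genes) and 0 were lower (against 8.74%). Between ring1ab and emf1-2, HEMA1, CHLH, GUN4, PORB and GLK1 were higher in ring1ab, by 1.12, 1.04, 2.1, 1.45 and 3.08 (5 of 9, against 14.1% of all genes). PORA was lower in ring1ab than in emf1-2 by a log2 difference of -2.34 (9.05% of all genes were lower), a difference that again follows in part from the filter. The CHLH call of this last comparison was at the threshold and was lost without ring1ab replicate 2 (0.96). These comparisons share libraries with those against WT and are not independent of them.

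Over the 12 libraries, GUN4 and GLK1 had a Pearson correlation of 0.98 on the log2 scale, CHLH and GLK1 one of 0.96, and HEMA1 and PORB also 0.96. PORA and GLK1 ran opposite to each other (-0.98). The correlation of GLK1 with GLK2 was 0.60 and that of GUN4 with PORC 0.50. These values describe how the 4 genotype means line up, since libraries of a genotype share their origin, and no test was made of them. Among all tested genes, those with the pattern most like GLK1 were AT3G52900 (r = 0.993), AT2G46690 (0.991) and AT4G22666 (0.991), the last of which went from 35.3 FPKM in WT to 7.20 in clf28swn7 and 0.811 in emf1-2. For PORB they were AT2G27402 (0.993), LHCB3 (0.992), an antenna protein of photosystem II, and AT4G17370 (0.992). For PORA they were RPA1A, a subunit of the single-strand DNA-binding replication protein A, BRL1, a brassinosteroid receptor, and AT2G40260, each with r = 0.99. GLK2 had no neighbour as close, with ATAUX2-11, an auxin-responsive gene, at 0.918, AT1G26761 at 0.901 and AT4G18380 at 0.864.

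The other genes of the route were taken from lists of 25 further genes for the shared steps and the magnesium branch, of which 23 were tested. These lists were chosen with earlier results of these data known. In clf28swn7 12 of the 23 were called lower and 0 higher, beside 12.3% and 15.1% of all tested genes. In emf1-2 8 were lower and 0 higher, beside 12.4% and 13.7% of all genes, but with median-of-ratios scaling 12 were lower, as in clf28swn7. In ring1ab 0 were called in either direction, where 1.03% of all genes were lower and 7.16% higher. The median log2 fold changes were -1.09, -0.85 and -0.39. All 23 had a negative value in clf28swn7 and in emf1-2, also those that were not called, beside 46.1% and 39.8% of all tested genes. In ring1ab, where none reached the fold threshold, 20 of the 23 had a negative value with an unadjusted limma p under 0.05 and 0 a positive one, beside 18.9% and 27.3% of all genes. Within the shared steps up to protoporphyrin, where 12 of 14 genes were tested, 6 were lower in clf28swn7 and 2 in emf1-2, and the latter count was 5 with median-of-ratios scaling and 1 without emf1-2 replicate 2. HEME1, a uroporphyrinogen decarboxylase gene, went from a mean of 65.9 FPKM in WT to 18.3 in clf28swn7 and 23.8 in emf1-2 (log2 fold changes -1.80 and -1.45), and GSA2, a glutamate-1-semialdehyde aminotransferase gene, from 70.4 to 25.4 and 34.2 (-1.44 and -1.05, the latter not called without emf1-2 replicate 2, at -0.93, or replicate 3, at -0.98). HEMA2, the less abundant relative of HEMA1, was not called in any mutant, with means of 14.9, 12.3, 13.4 and 21.4 FPKM in WT, clf28swn7, emf1-2 and ring1ab. HEMG2, a protoporphyrinogen oxidase gene, was not called either (log2 fold changes -0.40, -0.24 and -0.23).

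Of 11 genes listed under the magnesium branch, 6 were lower in clf28swn7 and 6 in emf1-2, beside 12.3% and 12.4% of all tested genes. The list also held FLU and GBP, which are not enzymes of this branch. FLU was among the genes called lower in clf28swn7 (-1.17). CHLM, which methylates Mg-protoporphyrin, was at 147 FPKM in WT, 22.1 in clf28swn7, 35.8 in emf1-2 and 93.3 in ring1ab (log2 fold changes -2.73, -2.0 and -0.65). CHLP, the geranylgeranyl reductase that supplies the phytol tail, was at 513, 226, 116 and 418 FPKM (-1.18, -2.14 and -0.30). Beside them, CHLH of the same branch had -0.74, -1.3 and -0.25. LCAA, a subunit of the cyclase step, and GBP, a protein that binds glutamyl-tRNA reductase, had log2 fold changes between -0.73 and -0.21 and were not called.

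Of 5 genes of the branch towards heme, 1 was higher and 1 lower in clf28swn7 and in emf1-2, and 1 was higher in ring1ab. With so few genes these counts are near the shares of all genes given above, and single genes are described. FC1, a ferrochelatase gene, was at 16.2 to 20.5 FPKM in WT, 37.8 to 42.3 in clf28swn7, 38.2 to 43.3 in emf1-2 and 26.6 to 81.5 in ring1ab (log2 fold changes 1.09, 1.09 and 1.07). It was called higher in all 3 mutants, but the ring1ab call rested on replicate 1 and gave 0.57 without it and 0.98 without WT replicate 1, and the emf1-2 call was lost with median-of-ratios scaling (0.89). FC2, the ferrochelatase gene known from green tissue, was not called (-0.74, -0.19 and -0.57). HO1, the heme oxygenase that starts phytochrome chromophore synthesis, went from 88.9 FPKM to 24.7 in clf28swn7 and 33.4 in emf1-2 (-1.81 and -1.39), and HY2, the next enzyme of that route, was not called (0.34, 0.64 and -0.34).

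Genes for chlorophyll turnover were divided. Of 11, 3 were higher and 2 lower in clf28swn7, beside 15.1% and 12.3% of all tested genes. In emf1-2 4 were higher and 0 lower, beside 13.7% and 12.4%. In ring1ab 1 was higher and 0 lower, beside 7.16% and 1.03%. With so few genes the clf28swn7 and ring1ab counts are near these shares. With median-of-ratios scaling the emf1-2 counts became 1 higher and 1 lower, and 2 were higher in clf28swn7. CLH2, annotated as a chlorophyllase, was at 1.38 FPKM in WT, 8.83 in clf28swn7, 4.16 in emf1-2 and 4.03 in ring1ab and was called higher in all 3 (log2 fold changes 2.05, 1.12 and 1.08), with the ring1ab call lost without ring1ab replicate 2 (0.97) or WT replicate 2 (1.00 after rounding) and the emf1-2 call lost with median-of-ratios scaling (0.97). SGR2, a relative of the Mg-dechelatase SGR1, rose from 2.85 to 12.8 FPKM in clf28swn7 and to 8.01 in emf1-2. SGR2 was not called in ring1ab (0.14). HCAR, which takes part in converting chlorophyll b back towards chlorophyll a, and PPH, a pheophytinase, were lower in clf28swn7 (-1.81 and -1.17).

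**Figure D4:**
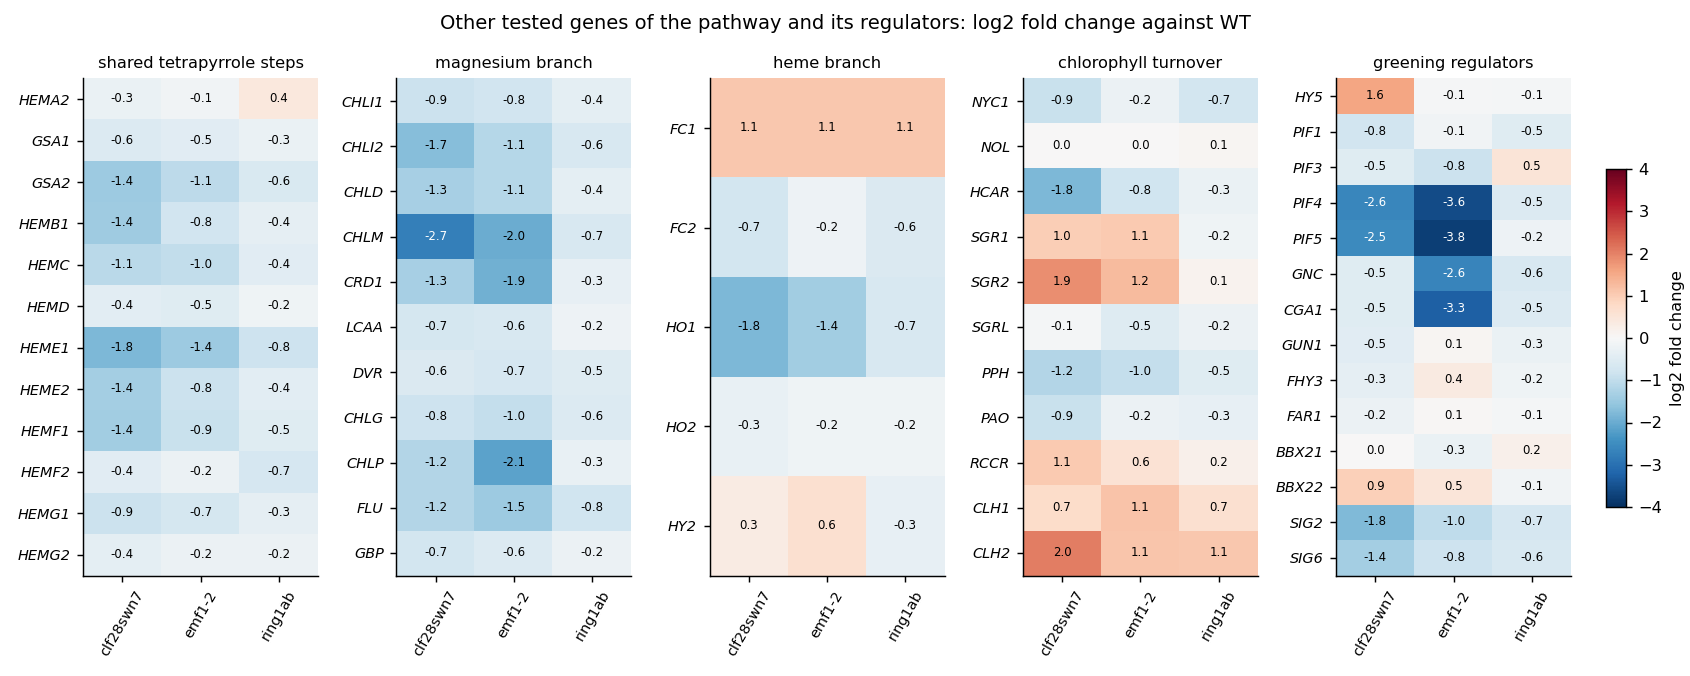
Log2 fold change against WT of the other tested genes of the pathway and its regulators in the 3 mutants, on the log2(FPKM + 1) scale, with colours limited to the range from -4 to 4 and the value printed in each cell. The shared steps and the magnesium branch are below 0 throughout clf28swn7 and emf1-2, FC1 and CLH2 are above 1 in all 3 mutants, and PIF4 and PIF5 are the lowest of the regulators in clf28swn7 and emf1-2.

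Of 14 other regulators of greening, 4 were lower and 1 higher in clf28swn7, beside 12.3% and 15.1% of all tested genes. In emf1-2 5 were lower and 0 higher, beside 12.4% and 13.7%. In ring1ab 0 were called in either direction, where 1.03% of all genes were lower and 7.16% higher. There 7 had a negative and 1 a positive value at an unadjusted limma p under 0.05 (18.9% and 27.3% of all genes). PIF4 and PIF5, phytochrome-interacting factors, had larger log2 fold changes than GLK1 in both clf28swn7 and emf1-2. PIF4 fell from 104 FPKM to 16.3 in clf28swn7 and 7.86 in emf1-2 (-2.60 and -3.58). PIF5 fell from 63.0 to 10.0 and 3.70 (-2.54 and -3.77). HY5, a bZIP factor that promotes greening in light, rose in clf28swn7 from 13.5 to 41.9 FPKM (1.57) and was at 12.9 in emf1-2 and 12.8 in ring1ab. BBX22, a B-box factor, was not called (0.95, 0.48 and -0.14), except in clf28swn7 without replicate 3 of that mutant (1.01). GNC and CGA1, GATA factors that promote chloroplast development, were singled out after their values were seen. GNC was at 32.3 FPKM in WT, 22.6 in clf28swn7 and 4.42 in emf1-2 (-0.50 and -2.64) and CGA1 at 19.0, 13.3 and 1.23 (-0.48 and -3.27). Both were lower in emf1-2 than in clf28swn7, by log2 differences of -2.14 and -2.79. No p-value is given for these differences because of that choice.

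The light-harvesting antenna, whose proteins bind the chlorophyll made by this route, was described beside the 9 genes. Of 18 antenna genes, 15 were lower and 1 higher in clf28swn7, 17 lower and 1 higher in emf1-2, and 0 in either direction in ring1ab, with median log2 fold changes of -3.14, -3.39 and -0.49. Of all tested genes, 12.3%, 12.4% and 1.03% were lower and 15.1%, 13.7% and 7.16% higher in the same order. At an unadjusted limma p under 0.05 alone, 10 antenna genes had a negative and 3 a positive value in ring1ab, beside 18.9% and 27.3% of all genes. Their summed FPKM was 42000 to 46400 in WT, 3610 to 4790 in clf28swn7, 2420 to 3650 in emf1-2 and 28200 to 36100 in ring1ab, whereas the sum of the 9 genes was 734 to 772, 365 to 426, 278 to 303 and 648 to 750. LHCB1.4 was at 3340 FPKM in WT, 0.758 in clf28swn7 and 16.5 in emf1-2, and LHCB4.2 at 1020, 70.6 and 28.8. The LHCB1 genes are close copies of each other, so their single values are uncertain. LHCB2.1 was not called in clf28swn7 (-0.45) and was lower in emf1-2 (-1.37). The exception in both mutants was LHCB4.3, which rose from 8.55 FPKM in WT to 29.4 in clf28swn7 and 47.2 in emf1-2 (1.68 and 2.34).

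In lists of genes marked by PcG proteins in WT that accompany the study, which were read only in part, GLK1 stood among the genes with both H2AK121ub and H3K27me3, and PORC and CAO among those with H2AK121ub alone. None of the other 6 genes was in the list with H3K27me3 alone, which was read past all of them, and the list with H2AK121ub alone was not read as far as any of them. The list with both marks was read past HEMA1, which was not in it, but not as far as the rest of these genes.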

How the data were processed

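Total RNA of whole seedlings was sequenced as paired-end libraries; the kit named in the methods takes total RNA, whereas the labels give polyadenylated RNA. The authors checked reads with FastQC, used HISAT2 for mapping to TAIR10, and deposited per gene and library the FPKM that StringTie and ballgown gave; versions, strand setting and filters were not given in the sources used here, and replicates were not pooled. Depth was estimated from 8472 genes with 1 exon and 1 transcript, whose lowest FPKM values gather at the worth of 1 fragment.

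From the deposited FPKM, log2(FPKM + 1) was tested with limma 3.58.1 in R 4.3.3, with all 12 libraries in 1 fit without a block and p-values adjusted by Benjamini-Hochberg over 21227 genes (3 or more libraries at 1 FPKM or above); the script was tested on simulated data. As in the study's methods, calls needed an unadjusted p below 0.05 together with a log2 fold change of 1 or more in either direction. Ratios and shares were compared by exact two-sided permutation tests in Python 3.11.15 (numpy 2.4.6, pandas 2.3.3, scipy 1.17.1, Biopython 1.88). Gene positions, exons and sequences came from RefSeq TAIR10.1, which names 32835 of the 33602 genes and whose chromosome 1 of 30427671 bases has the length of TAIR10. The 9 genes and all lists were chosen with earlier results of these data known. From each list up to 4 genes were named, those with the lowest 2 and highest 2 mean log2 fold changes over the mutants and any called against the rest of its list (GNC and CGA1 were named outside this rule), and for PORA, PORB, GLK1 and GLK2 the 3 genes with the highest Pearson r. Alternatives were a pseudocount of 0.1, no filter, adjusted p-values, 2 genotypes alone, eBayes with trend and robust settings, a replicate block, median-of-ratios scaling, TPM and leaving out each library.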

Additional observations from a re-analysis of the deposited data

How the results depend on the processing

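Of the 27 differences of the 9 genes from WT, no direction of a called gene turned under 8 alternatives or when each of 12 libraries was left out, and 4 of 540 recomputed calls changed. No filter, adjusted p-values, 2 genotypes alone, the eBayes settings and the replicate block leave each fold change as it was by design. So does leaving out a library of neither genotype compared. These settings could not turn a direction, so the 540 overstate how far the calls were probed. With a pseudocount of 0.1, 1 of the 9 genes was higher in clf28swn7 (PORA, 1.47), 2 were lower in ring1ab (PORC and PORA, -1.04) and all genes lower in ring1ab numbered 397 in place of 219, since a smaller pseudocount enlarges the fold changes of low genes. Leaving out a library gave 0 to 1 of the 9 genes lower in ring1ab, with 0 without ring1ab replicate 3. Between mutants, PORA was called lower in ring1ab than in clf28swn7 with a pseudocount of 0.1 (-2.51) and as TPM (-1.10), and CHLH missed the threshold between ring1ab and emf1-2 as TPM (0.98). Median-of-ratios scaling changed the split of all called genes in emf1-2 from 2909 higher and 2634 lower to 2274 and 3147. Same-numbered libraries did not deviate together (18 pairs, r from -0.142 to 0.0782), so no pairing by number was seen, though 3 libraries per genotype could miss a weak one. With the replicate block 5 of the 9 genes were lower in emf1-2 and 2634 of all genes, as without it. The block cannot move a fold change in this balanced design, so these equal counts are no test of pairing. PORA rests on fewer than 31 estimated fragments per library outside emf1-2, and depth limits what can be said of it there.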
